A study of Homo sapiens with 12 samples.

Results

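YAP1 and TEAD1 and 8 genes that YAP and the TEAD factors are known to drive were described in HK-2 cells, immortalized human epithelial cells derived from the proximal tubule, after treatment with 3 nephrotoxic drugs. The 10 genes were chosen by name and found by their symbols among the 58735 genes of the count table, where CCN1 is listed as CYR61 and CCN2 as CTGF. The rule used gene names and no threshold on a measured value, although earlier results of these data were known. Sequencing covered the mRNA of 12 samples, 3 in each of 4 groups. The control group was labelled with water (H2O) and no drug. The iohexol group received 75 mg I/mL of this iodinated contrast medium, the cisplatin group 5 μM of this platinum drug, and the vancomycin group 4 mM of this glycopeptide antibiotic, each for 48 h. The labels do not give a time for the control group. All groups were grown in DMEM/F12 with fetal bovine serum and antibiotics. No label says whether the 3 samples of a group were separate cultures, so that p-values measure only the spread between these samples, which may be technical. The same 3 control samples served in the comparison of each drug with the control group.

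YAP1 encodes YAP, a transcription coactivator that does not bind DNA itself and acts through the TEAD transcription factors, of which TEAD1 is one. The Hippo pathway restrains it: the kinases MST1 and MST2 with their partner SAV1 activate LATS1 and LATS2, which phosphorylate YAP and its paralog TAZ (encoded by WWTR1) and so keep them out of the nucleus. In epithelial cells YAP responds to cell density, to the stiffness of the matrix and to tension of the actin cytoskeleton. In the kidney tubule it is known for roles in regeneration after injury and in fibrosis. Among its targets CYR61, CTGF and ANKRD1 are the usual readouts, and AXL is a receptor tyrosine kinase. LATS2, AJUBA, AMOTL1 and AMOTL2 are targets that act back on the pathway. mRNA levels do not show where YAP was in the cell or how far it was phosphorylated.

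The authors deposited read counts per gene, with 14057282 to 18177109 counts per sample. Levels are given as CPM, counts scaled to the library total after TMM normalization over the 12 samples, or as RPKM, the CPM per kilobase of the gene length in the table. A floor of 3 counts stands for 0.177 to 0.218 CPM and covers counting error only, and every value of the 10 genes was at least 230 counts. Of 7 renal epithelial markers, 6 had at least 3 counts in every sample, whereas of 9 markers of the differentiated proximal tubule this held for 4, and SLC22A6 and SLC22A8, which encode organic anion transporters, were under 3 counts in every sample. Of 4 immune markers none reached 3 counts in every sample, with a sum of at most 0.405 CPM. In a bulk sample, fewer cells of a kind and less RNA per cell cannot be told apart.

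The genes lie on 8 chromosomes (GRCh38 coordinates of the count table), and each is annotated as protein-coding. YAP1 (ENSG00000137693) is at chr11:102110461-102233423 and TEAD1 (ENSG00000187079) at chr11:12674591-12944483, both on the plus strand. CYR61 (ENSG00000142871) is at chr1:85580761-85583962 on the plus strand, CTGF (ENSG00000118523) at chr6:131948176-131951373 on the minus strand, and ANKRD1 (ENSG00000148677) at chr10:90912096-90921276 on the minus strand. AXL (ENSG00000167601) is at chr19:41219203-41261766 on the plus strand. LATS2 (ENSG00000150457) is at chr13:20973032-21061547 and AJUBA (ENSG00000129474) at chr14:22971174-22982642, both on the minus strand. AMOTL1 (ENSG00000166025) is at chr11:94706431-94876753 on the plus strand and AMOTL2 (ENSG00000114019) at chr3:134355874-134375479 on the minus strand. The strand setting of the counting is not given in the sources used here, and the genes that overlap their exons held few counts: 67 over all samples for AC011510.1 against 71611 for AXL, 20 for RPL39P5 against 56685 for AMOTL2, and 3 for AL133346.1 against 51561 for CTGF. YAP1 shares 13.5% of its 31-base sequences with other genes, of which AP000942.2, on the opposite strand, held 0 counts. How reads in shared bases were assigned is not known here, so these low counts cannot show whether reads were lost.

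With vancomycin 7 of the 8 targets fell, 6 of them as DEGs, and AMOTL1 did not pass the test. TEAD1 fell as a DEG as well and YAP1 was not called, so that 8 of the 10 genes fell, 7 of them as DEGs, and none rose. With cisplatin 4 of the 10 rose and 5 fell, none past the fold limit of a DEG, so that CTGF and ANKRD1 rose while CYR61 and AXL fell. With iohexol 3 fell, CTGF the furthest, and none rose. A gene was called at a Benjamini-Hochberg adjusted p under 0.05 in edgeR's quasi-likelihood test, and a DEG also had a log2 fold change above 1 or below -1.

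Read against all genes tested, the count with vancomycin was 8 of 10 lower where 28.8% of 15819 genes were lower, and 7 of 10 down-regulated DEGs where 7.65% of genes were. The median log2 fold change was -1.53 over the 10 genes and -0.0084 over all genes. On the other side 0 of 10 were higher (29.0% of all genes, and 10.8% as up-regulated DEGs), a count that was 0 also at an unadjusted p under 0.05 and by DESeq2 and limma-voom. With cisplatin 4 of 10 were higher and 5 of 10 lower where 29.2% and 30.6% of 15876 genes were, shares that lie closer to those of all genes, and 0 of 10 were DEGs where 7.62% of genes were up-regulated and 8.72% down-regulated DEGs. Here the median was -0.24 over the 10 genes and 0.0074 over all genes. Without YAP1 and TEAD1, which both fell with cisplatin, 4 of the 8 targets were higher and 3 lower, with a median of 0.0078. Over the same 8 targets the median was -1.69 with vancomycin (7 lower, 0 higher) and -0.13 with iohexol (3 lower, 0 higher). With iohexol 3 of 10 were lower and 0 of 10 higher where 9.77% and 11.2% of 15657 genes were, with 0 DEGs among the 10 where 1.25% of genes were down-regulated and 4.02% up-regulated DEGs, and the median over the 10 was -0.027 against 0.012 over all genes. For both drugs DESeq2 and limma-voom gave the same counts, and at an unadjusted p under 0.05 iohexol had 1 higher and 4 lower, with 0 past the fold limit for either drug.

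**Figure D1:**
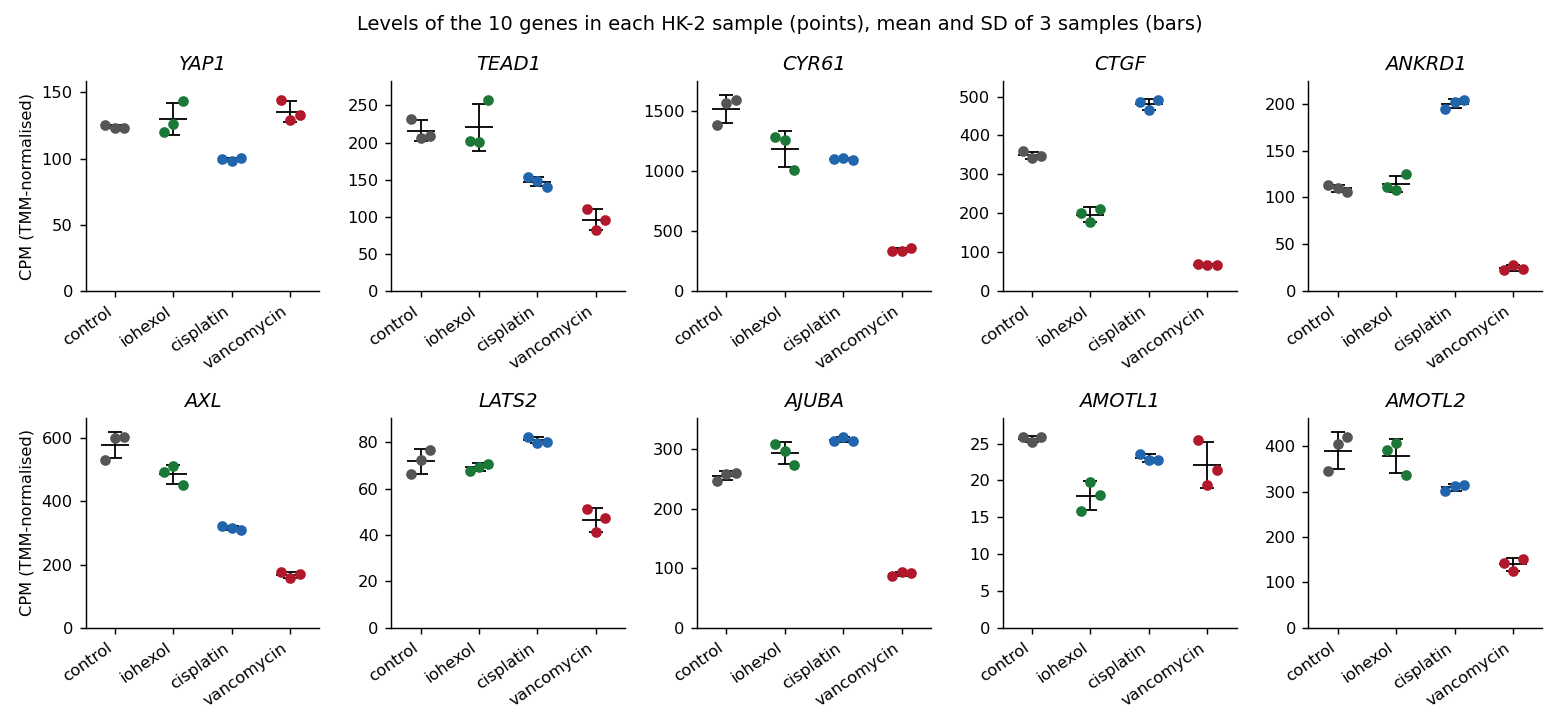
Level of each gene in CPM (y axis, linear from 0) in the 4 groups (x axis), where points are the 3 samples of a group and bars their mean and SD. YAP1 stays within 97.9 to 144 CPM, and every gene but YAP1 and AMOTL1 is lowest in the 3 vancomycin samples. CTGF, ANKRD1, LATS2 and AJUBA are highest in the 3 cisplatin samples.

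YAP1 itself varied little. Its levels were 125, 124 and 123 CPM in the control samples and 120.0, 126 and 144 CPM with iohexol. They were 99.6, 97.9 and 101 CPM with cisplatin and 144, 129.5 and 133 CPM with vancomycin. The 3 cisplatin samples lay below all others, and the control, iohexol and vancomycin groups followed each other with neighbours in the order of the means overlapping, although every vancomycin sample was above every control sample. With cisplatin YAP1 fell 1.25-fold (log2 fold change -0.32 ± 0.061, SE, n = 3 and 3, edgeR adjusted p = 0.000216), a call that was lost when only library sizes were used for scaling (-0.10, adjusted p = 0.146). With iohexol (log2 fold change 0.084, 95% interval -0.11 to 0.28) and vancomycin (0.085, 95% interval -0.095 to 0.26) it was not called.

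TEAD1 encodes a TEAD factor that is found in many tissues, and it fell with 2 of the drugs. Its levels were 232, 206 and 209 CPM in the control samples and 202, 201 and 257 CPM with iohexol. They were 153, 148 and 140.5 CPM with cisplatin and 111, 82.0 and 95.2 CPM with vancomycin. The control and iohexol samples overlapped, the cisplatin samples lay below both, and the vancomycin samples lay below the cisplatin samples. The fall was 1.47-fold with cisplatin (log2 fold change -0.55 ± 0.066, SE, adjusted p = 1.38e-06) and 2.32-fold with vancomycin (-1.21 ± 0.10, adjusted p = 5.63e-10), while with iohexol TEAD1 was not called (0.046, 95% interval -0.18 to 0.28).

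Their paralogs were measured beside them. WWTR1, which encodes TAZ, had 691 ± 44.3 CPM (mean ± SD of 3 samples) in control cells, 406 ± 46.5 with iohexol, 537 ± 10.8 with cisplatin and 249.8 ± 31.1 with vancomycin. It fell with each drug, by 0.75, 0.37 and 1.51 on the log2 scale in this order (adjusted p = 0.000183, 3.36e-05 and 3.47e-12). TEAD2, TEAD3 and TEAD4 encode the other TEAD factors and were at 27.5, 24.4 and 27.6 CPM in the control group. With vancomycin, where TEAD1 fell, these 3 rose, to 43.2, 32.6 and 37.9 CPM (log2 fold changes 0.61, 0.38 and 0.41, adjusted p = 3.52e-05, 0.00782 and 0.00228). With cisplatin TEAD3 and TEAD4 rose (0.39 and 0.36, adjusted p = 0.00285 and 0.00169) and TEAD2 was not called (0.074). With iohexol none of the 3 was called.

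CYR61 and CTGF encode secreted matricellular proteins of the CCN family that bind integrins, and they differed in how they responded to cisplatin. By RPKM, CYR61 was the most abundant of the 10 genes in every group. Its levels were 1382, 1573 and 1593 CPM in the control samples and 1281, 1264 and 1010 CPM with iohexol. They were 1100, 1110 and 1090 CPM with cisplatin and 334, 335 and 360.1 CPM with vancomycin. Every drug-treated sample lay below every control sample, the iohexol and cisplatin samples overlapped, and the vancomycin samples were far below all others. The fall was 4.55-fold with vancomycin (log2 fold change -2.19 ± 0.088, SE, adjusted p = 9.25e-16), 1.38-fold with cisplatin (-0.46 ± 0.055, adjusted p = 1.26e-06) and 1.26-fold with iohexol (-0.34 ± 0.10, adjusted p = 0.0367). The call with iohexol was lost without control replicate 2 (adjusted p = 0.117) or control replicate 3 (0.0934) and with library sizes only (0.0901).

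CTGF showed 4 separate levels. They were 359, 341 and 348 CPM in the control samples and 202, 176 and 212 CPM with iohexol. They were 486, 464 and 491 CPM with cisplatin and 68.6, 67.2 and 66.1 CPM with vancomycin. No 2 groups overlapped, and the order from the highest was cisplatin, control, iohexol and vancomycin. CTGF rose 1.37-fold with cisplatin (log2 fold change 0.46 ± 0.055, SE, adjusted p = 1.34e-06). It fell 1.75-fold with iohexol (-0.81 ± 0.088, adjusted p = 6.12e-05) and 5.34-fold with vancomycin (-2.42 ± 0.088, adjusted p = 1.69e-16), the largest fall of the 10 genes in the comparisons with the control group.

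ANKRD1 encodes an ankyrin repeat protein known from heart muscle, where it acts as a transcription cofactor. Its levels were 113, 109.9 and 106 CPM in the control samples and 111, 107 and 124 CPM with iohexol. They were 195, 202 and 204 CPM with cisplatin and 22.5, 28.1 and 23.0 CPM with vancomycin. The control and iohexol samples overlapped, the cisplatin samples lay above them and the vancomycin samples below. ANKRD1 rose 1.83-fold with cisplatin (log2 fold change 0.87 ± 0.061, SE, adjusted p = 1.48e-09), the largest rise of the 10 genes with any drug, and fell 4.60-fold with vancomycin (-2.20 ± 0.10, adjusted p = 1.96e-14). With iohexol it was not called (0.078, 95% interval -0.12 to 0.27). Scaled by library size only, its rise with cisplatin came to 1.09 and passed the fold limit of a DEG.

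Of the 8 genes whose upstream sequence could be read, CTGF and ANKRD1 held the most copies of the core TEAD motif GGAATG in the 250 bases before the RefSeq transcription start. The motif was searched on both strands, with the AP-1 motif TGANTCA, in 27305 RefSeq promoters (GRCh38.p14). Of all of them 11.9% held at least 1 TEAD core, 0.963% at least 2 and 0.095% at least 3, and 6.60% held an AP-1 motif. CTGF held 3 TEAD cores, ANKRD1 2 and an AP-1 motif, and YAP1 1, while the windows of AXL, LATS2, AJUBA, AMOTL1 and AMOTL2 held neither motif. Only the first listed RefSeq start of each gene was read, so other starts of these genes were not searched. The AMOTL1 window (chr11:94768106-94768355) lies inside the annotated gene and not before its annotated 5' end. The LATS2 window could not be matched to a transcript of the gene to check its direction. TEAD1 and CYR61 had no entry in the RefSeq table. A match is a description of the letters and not a bound site. The upstream stretches of CTGF (chr6:131951374-131951622, minus strand) and ANKRD1 (chr10:90921276-90921337, minus strand, its last base the first of the annotated exon), a further 30 bases around the second TEAD core of ANKRD1, which lies in its first annotated exon (chr10:90921198-90921227), and the upstream window of YAP1 (chr11:102110197-102110446, plus strand) are shown for these copies, with the motifs in capitals:
CTGF: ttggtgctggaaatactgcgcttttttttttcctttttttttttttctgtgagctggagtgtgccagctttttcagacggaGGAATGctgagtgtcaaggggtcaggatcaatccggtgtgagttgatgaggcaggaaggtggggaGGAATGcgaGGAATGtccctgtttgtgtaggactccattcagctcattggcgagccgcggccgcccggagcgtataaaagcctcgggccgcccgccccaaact
ANKRD1: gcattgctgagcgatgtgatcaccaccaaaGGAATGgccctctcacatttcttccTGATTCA
ANKRD1, second TEAD core: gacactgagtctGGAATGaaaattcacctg
YAP1: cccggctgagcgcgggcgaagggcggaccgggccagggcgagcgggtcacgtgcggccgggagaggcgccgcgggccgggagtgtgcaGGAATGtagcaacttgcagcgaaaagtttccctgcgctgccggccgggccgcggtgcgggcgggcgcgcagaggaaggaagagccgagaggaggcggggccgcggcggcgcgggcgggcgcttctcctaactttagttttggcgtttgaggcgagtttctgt

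In CTGF the cores began 169, 104 and 95 bases before the start, the last 2 only 9 bases apart, and all read in the direction of transcription. In ANKRD1 they began 220 and 128 bases before the start with the AP-1 motif TGATTCA at 195 bases, and in YAP1 the core began at 162 bases. LATS2 and AJUBA, which like CTGF and ANKRD1 had their highest mean with cisplatin and their lowest with vancomycin, held no core in this window. A link between the motif and the levels was not tested, and sequence outside these windows was not searched.

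**Figure D2:**
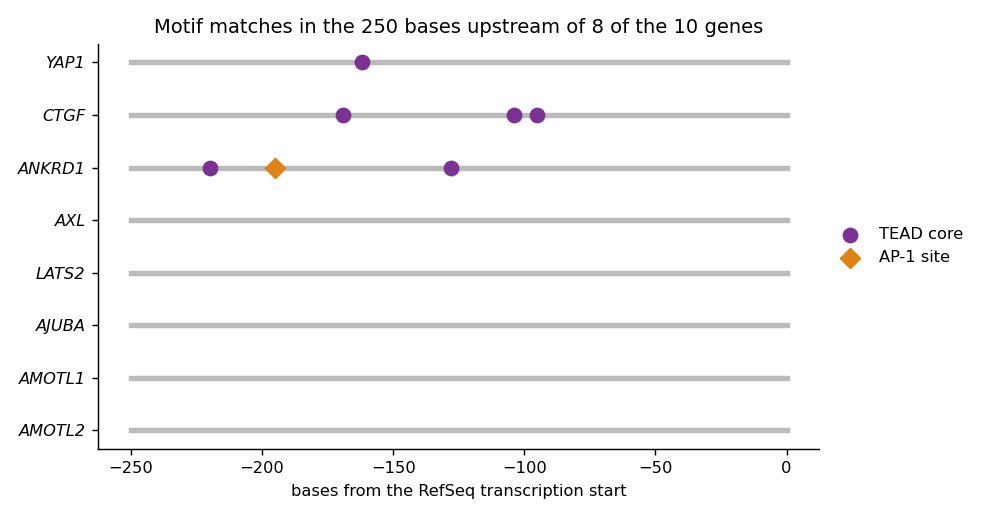
Position of each match to the TEAD core (circles) and the AP-1 motif (diamond) in bases from the RefSeq transcription start (x axis) in the upstream windows of 8 of the 10 genes (grey lines). CTGF has 3 TEAD cores, ANKRD1 2 with an AP-1 motif between them, YAP1 1, and the other 5 genes none.

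AXL encodes a receptor tyrosine kinase that binds GAS6 and promotes survival. Its levels were 533, 601 and 605 CPM in the control samples and 493, 512 and 452 CPM with iohexol. They were 324, 316 and 310.3 CPM with cisplatin and 176, 157 and 169 CPM with vancomycin. No 2 groups overlapped, in the order control, iohexol, cisplatin and vancomycin. AXL fell 1.83-fold with cisplatin (log2 fold change -0.87 ± 0.059, SE, adjusted p = 8.71e-10), the largest fall of the 10 genes with this drug, and 3.57-fold with vancomycin (-1.84 ± 0.090, adjusted p = 3.17e-14). The lower values with iohexol did not pass the test (-0.24 ± 0.086, adjusted p = 0.0745), although they did in a fit of all 12 samples (adjusted p = 0.0181).

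AJUBA encodes a LIM domain protein that binds LATS kinases at cell junctions and restrains them, and so favours YAP. Its levels were 247, 259 and 260.5 CPM in the control samples and 309.5, 298 and 273 CPM with iohexol. They were 313, 321 and 314 CPM with cisplatin and 86.2, 93.3 and 92.3 CPM with vancomycin. The cisplatin and iohexol samples lay above the control samples and the vancomycin samples far below them. AJUBA rose 1.24-fold with cisplatin (log2 fold change 0.31 ± 0.055, SE, adjusted p = 0.000113) and fell 2.90-fold with vancomycin (-1.54 ± 0.086, adjusted p = 2.86e-13). With iohexol it was not called (0.22 ± 0.084, adjusted p = 0.0863), but it was without iohexol replicate 3 (adjusted p = 0.0129), in a fit of all 12 samples (0.045) and with library sizes only (0.0283).

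LATS2 encodes the kinase that phosphorylates YAP and is itself a YAP target, a negative feedback. Its levels were 66.3, 72.4 and 76.7 CPM in the control samples and 67.6, 69.6 and 70.8 CPM with iohexol. They were 82.4, 80.0 and 80.4 CPM with cisplatin and 51.1, 41.2 and 47.3 CPM with vancomycin. The cisplatin samples were the highest and the vancomycin samples the lowest, and the control samples spanned the iohexol samples. LATS2 fell 1.59-fold with vancomycin (log2 fold change -0.67 ± 0.10, SE, adjusted p = 8.08e-06), the only gene of the 8 that fell without passing the fold limit of a DEG. The rise with cisplatin was small (0.17 ± 0.070, adjusted p = 0.044) and was lost without any 1 of the 3 cisplatin samples (adjusted p = 0.138, 0.0952 and 0.0934 without replicates 1, 2 and 3), without control replicate 1 (0.0779) or 2 (0.111), in a fit of all 12 samples (0.104) and without the filter on low counts (0.153). LATS1, its paralog, fell with cisplatin (-0.21 ± 0.070, adjusted p = 0.0146) and with vancomycin (-0.57 ± 0.10, adjusted p = 4.39e-05).

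AMOTL1 and AMOTL2 encode motins, scaffold proteins of cell junctions that bind YAP and hold it in the cytoplasm, and they differed from each other. The levels of AMOTL2 were 345, 405 and 421 CPM in the control samples and 391, 408 and 338 CPM with iohexol. They were 301, 313 and 315 CPM with cisplatin and 142, 124 and 152 CPM with vancomycin. The control and iohexol samples overlapped, and the cisplatin and then the vancomycin samples lay below them. AMOTL2 fell 2.88-fold with vancomycin (log2 fold change -1.52 ± 0.098, SE, adjusted p = 3.85e-12) and 1.26-fold with cisplatin (-0.33 ± 0.067, adjusted p = 0.000332), the latter a call that was lost with library sizes only (adjusted p = 0.141).

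By RPKM, AMOTL1 was the least abundant of the 10 genes in every group. Its levels were 25.8, 25.2 and 25.9 CPM in the control samples and 15.9, 19.8 and 18.0 CPM with iohexol. They were 23.6, 22.7 and 22.7 CPM with cisplatin and 25.5, 19.3 and 21.4 CPM with vancomycin. The iohexol samples were below the control and cisplatin samples, and the vancomycin samples overlapped the control, the iohexol and the cisplatin samples. AMOTL1 fell 1.41-fold with iohexol (log2 fold change -0.50 ± 0.12, SE, adjusted p = 0.0134), which was not called without iohexol replicate 1 (adjusted p = 0.0573). It was not called with cisplatin (-0.16, adjusted p = 0.154) or vancomycin (-0.26, adjusted p = 0.0778), and without vancomycin replicate 1 the latter came to -0.37 (adjusted p = 0.0188).

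**Figure D3:**
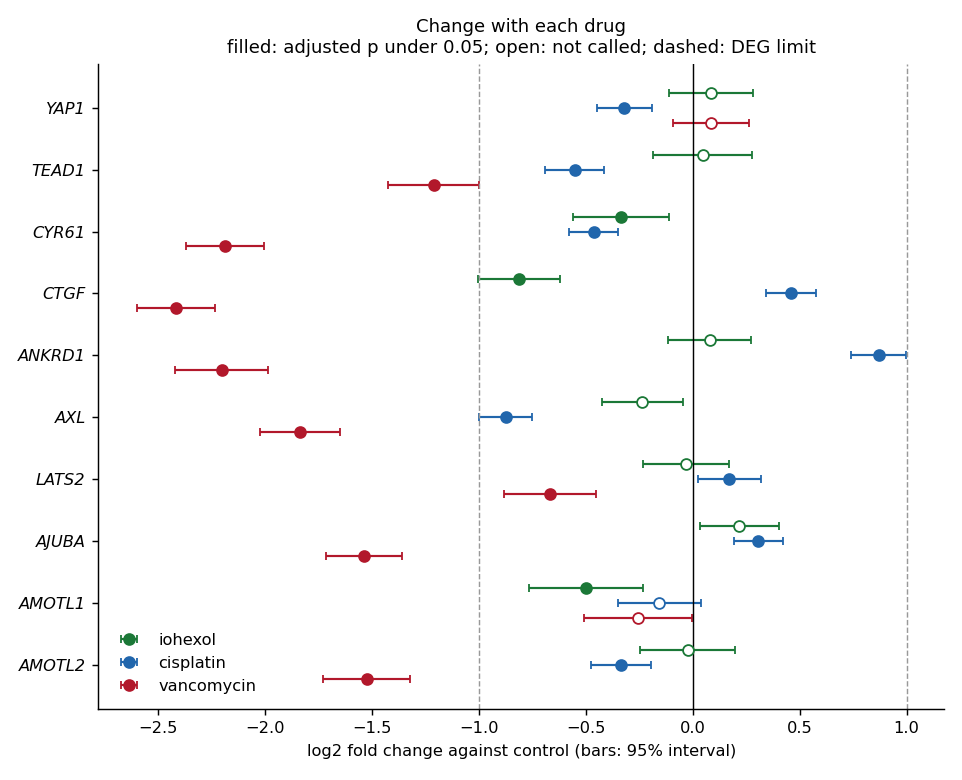
Log2 fold change of each gene against the control group (x axis) with its 95% interval, not adjusted for the number of genes, for iohexol (green), cisplatin (blue) and vancomycin (red), each from 3 against 3 samples. Vancomycin places 7 genes below the DEG limit of -1 (dashed), CTGF lowest at -2.42, while cisplatin has ANKRD1 at 0.87 and AXL at -0.87.

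The drugs were also compared with each other, in 1 fit of the 12 samples. Between vancomycin and cisplatin 8 of the 10 genes were lower with vancomycin and 1, YAP1, higher, where 30.0% and 34.7% of 17073 genes were. ANKRD1 was 8.17-fold lower (log2 difference -3.03 ± 0.095, SE, adjusted p = 1.58e-15) and CTGF 7.14-fold lower (-2.84 ± 0.081, adjusted p = 4.34e-16), while YAP1 was 1.36-fold higher (0.45 ± 0.080, adjusted p = 6.26e-05). The difference in AMOTL1 was -0.061 with a 95% interval of -0.30 to 0.18. Scaling by library size only lowered the median difference of all genes by 0.335, and 0 of the 10 genes were then higher and 9 lower.

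Between vancomycin and iohexol 8 of the 10 were lower with vancomycin and 1, AMOTL1, higher, where 27.6% and 29.0% of genes were. ANKRD1 was 4.66-fold lower (-2.22 ± 0.094, SE, adjusted p = 1.86e-13), CYR61 3.46-fold lower (-1.79 ± 0.088, adjusted p = 1.5e-12) and CTGF 2.92-fold lower (-1.55 ± 0.079, adjusted p = 2.56e-12). The difference in YAP1 was 0.060, with a 95% interval of -0.11 to 0.23. The call of AMOTL1 (0.30, adjusted p = 0.0348) was lost without iohexol replicate 1 (adjusted p = 0.149) or 3 (0.0515), without vancomycin replicate 1 (0.219) or 3 (0.0532), with only the samples of these 2 drugs (0.0999), without the filter on low counts (0.0636) and with library sizes only (0.513).

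Between cisplatin and iohexol 4 of the 10 were higher with cisplatin and 4 lower, where 26.0% and 27.9% of genes were. CTGF was 2.44-fold higher (1.29 ± 0.076, SE, adjusted p = 2.39e-11) and ANKRD1 1.75-fold higher (0.81 ± 0.086, adjusted p = 1.33e-07), and LATS2 (0.22) and AMOTL1 (0.36) were the other higher genes. AXL (-0.62 ± 0.076, adjusted p = 1.04e-06), TEAD1 (-0.58), YAP1 (-0.39) and AMOTL2 (-0.29) were lower. CYR61, which fell with both drugs, differed by -0.11 (95% interval -0.28 to 0.069) and AJUBA by 0.11 (95% interval -0.041 to 0.26). Without iohexol replicate 1, LATS2 (adjusted p = 0.102) and AMOTL1 (adjusted p = 0.074) were no longer called, which left 2 higher.

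**Figure D4:**
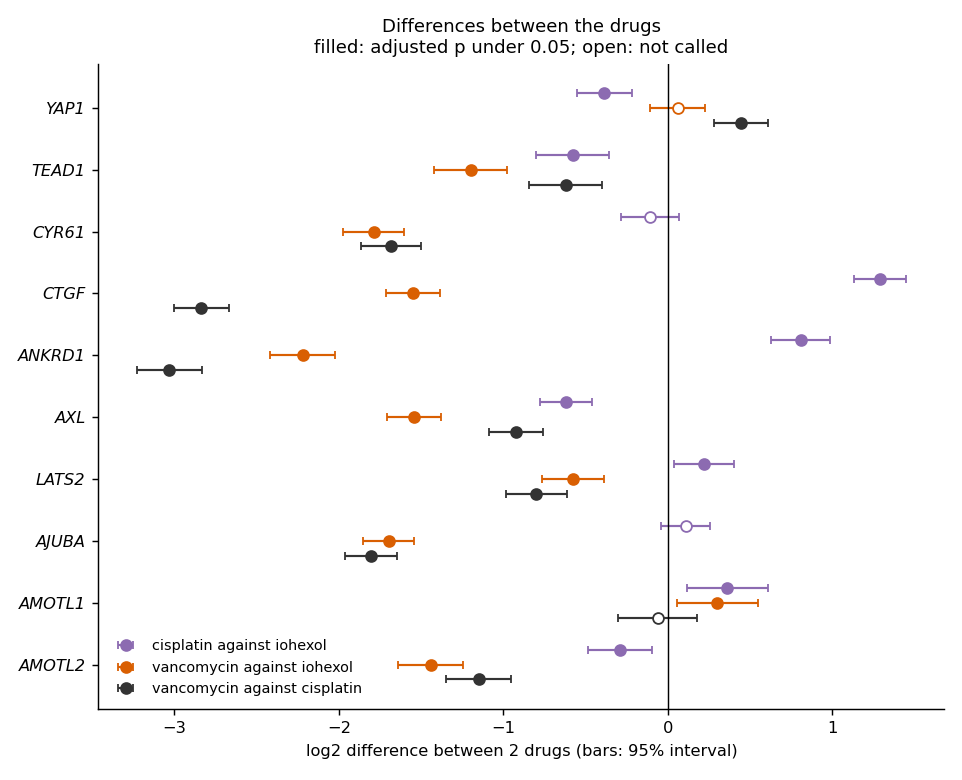
Log2 difference of each gene between 2 drugs (x axis) with its 95% interval, from 1 fit of the 12 samples, where filled points have an adjusted p under 0.05. The differences of vancomycin from cisplatin reach -3.03 for ANKRD1 and -2.84 for CTGF, and YAP1 is the only gene above 0 in that contrast.

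Set against gene length, CYR61 was the most abundant gene in each group, at 618 ± 47.3 RPKM (SD, n = 3) in the control group and 139.7 ± 6.00 with vancomycin, and AMOTL1 the least abundant, at 2.56 ± 0.0413 and 2.20 ± 0.316 RPKM. The order between them changed. In the control group it ran CYR61, CTGF, AXL, AMOTL2, ANKRD1, AJUBA, TEAD1, YAP1, LATS2 and AMOTL1, and no neighbours overlapped in their samples. With cisplatin ANKRD1 (101 ± 2.45 RPKM) stood above AXL (61.4 ± 1.29), whereas with iohexol AXL and CTGF overlapped (94.2 ± 5.93 and 84.0 ± 7.76 RPKM). With vancomycin YAP1 (21.5 ± 1.24 RPKM) overlapped AMOTL2 (23.3 ± 2.36) and stood above AJUBA (15.2 ± 0.637) and ANKRD1 (12.4 ± 1.56), which were 2 of the genes above it in the control group.

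Over the 12 samples the targets varied together to different degrees, as a description of 12 libraries in 4 groups that share their scaling. Pearson's r of log2 CPM was 0.98 between CYR61 and AMOTL2, 0.97 between ANKRD1 and AJUBA, 0.95 between CTGF and ANKRD1 and 0.96 between AXL and AMOTL2. These pairs are among the highest, and r was 0.69 between CTGF and AXL and 0.70 between ANKRD1 and AXL. TEAD1 had r = 0.95 with AXL, 0.90 with AMOTL2 and 0.63 with CTGF. YAP1 had a negative r with CTGF (-0.73), ANKRD1 (-0.71) and LATS2 (-0.63), and AMOTL1 stayed between -0.16 and 0.29 with every other member. Among 11537 genes of at least 5 CPM, the genes whose log2 CPM was most like that of CYR61 were EFHD1 (r = 0.99), HGH1 (0.99) and GRIK5 (0.99). For CTGF they were FAM83D (0.99), CDC45 (0.99) and STK26 (0.99), and for ANKRD1 TEX261 (0.99), WDR77 (0.99) and the lincRNA SNHG4 (0.99).

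Of 16 other genes known as YAP targets, 12 fell and 2 rose with vancomycin, with a median log2 fold change of -0.77 over the 16 genes tested and -0.0084 over all genes, where 28.8% of all genes tested fell and 29.0% rose. CRIM1, a membrane protein that binds growth factors, fell the furthest, from 702 ± 7.32 to 147 ± 17.7 CPM (-2.30 ± 0.096, SE, adjusted p = 1.93e-15), and NT5E, which encodes the ectonucleotidase CD73, rose the most (0.79 ± 0.096, adjusted p = 1.91e-07). With cisplatin 12 fell and 3 rose (median -0.53), against 30.6% and 29.2% of all genes, between RBMS3, an RNA-binding protein, at -2.30 ± 0.14 (adjusted p = 2.39e-10) and GADD45A, a stress gene also driven by p53, at 1.00 ± 0.064 (adjusted p = 4.66e-10). With iohexol 8 of the 15 tested fell and 1 rose (median -0.45), against 9.77% and 11.2% of all genes. IGFBP3, which binds insulin-like growth factors, fell from 186 ± 3.38 to 66.6 ± 3.82 CPM (-1.47 ± 0.088, adjusted p = 5.54e-07), and the kinase gene NUAK2 rose (0.41 ± 0.10, adjusted p = 0.0154), while it fell with vancomycin (-1.35, adjusted p = 1.47e-11). NT5E went opposite ways with iohexol (-1.36, adjusted p = 5.11e-05) and vancomycin. The call of NUAK2 with iohexol was lost without control replicate 2, without iohexol replicate 1 or 2 and with the replicate block, each of which left none of this list higher and 6 to 8 lower.

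Of 20 Hippo kinases and upstream regulators tested of 21 listed, 14 fell and 3 rose with vancomycin (median -0.63), 12 fell and 4 rose with cisplatin (median -0.24), and 3 fell and 2 rose with iohexol (median -0.094). The shares of all genes that fell and rose were those just given, and the iohexol counts lie near them. With vancomycin FAT1, a giant cadherin upstream of the pathway, fell from 1578 ± 22.0 to 524 ± 128 CPM (-1.63 ± 0.12, SE, adjusted p = 6.62e-11), and AMOT, the third motin, rose (0.70 ± 0.19, adjusted p = 0.00303), as it did with iohexol (0.89, adjusted p = 0.00787). With cisplatin SAV1, the scaffold of the MST kinases, rose from 44.6 ± 1.55 to 105 ± 0.276 CPM (1.24 ± 0.068, adjusted p = 6.35e-11), and WWC3, of the KIBRA family, fell from 43.7 ± 1.85 to 13.6 ± 0.380 CPM (-1.69 ± 0.093, adjusted p = 6.59e-11). With iohexol FRMD6, a FERM domain protein of the upstream complex, fell the furthest (-0.68 ± 0.095, adjusted p = 0.000392). Without control replicate 2 or iohexol replicate 2, only 1 gene of this list was higher with iohexol. With library sizes only, the cisplatin counts of this list came to 7 higher and 7 lower. Of the 8 genes listed as TAZ, other TEADs and VGLL cofactors, 4 rose and 1 fell of 5 tested with vancomycin, 2 rose and 2 fell of 6 with cisplatin, and 1 fell of 6 with iohexol. The cisplatin counts of these genes lie near the shares of all genes, and with library sizes only they came to 4 higher and 1 lower, while with iohexol they came to 1 higher and 1 lower, as also in a fit of all 12 samples. Without cisplatin replicate 2 or 3 or control replicate 2, only 1 of them fell with cisplatin, and without iohexol replicate 3, 1 rose with iohexol.

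**Figure D5:**
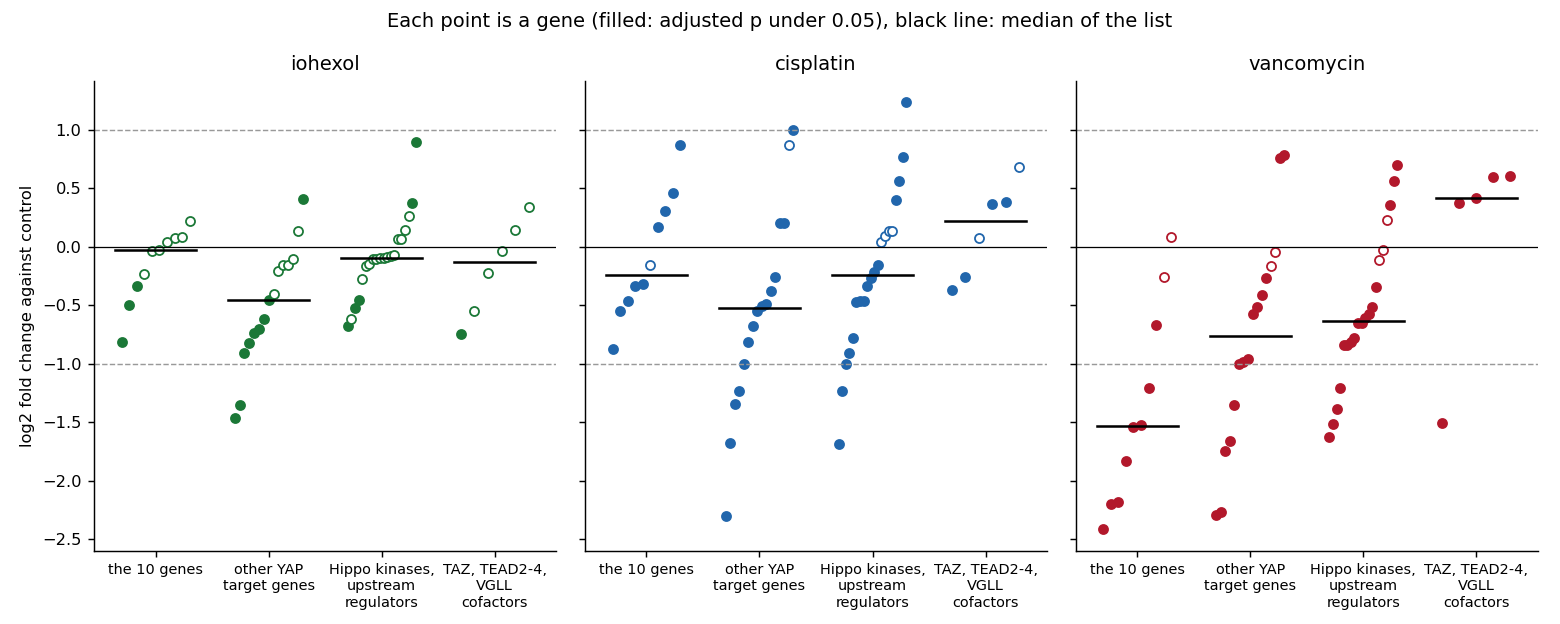
Log2 fold change against the control group (y axis) of each tested gene (points, filled where the adjusted p was under 0.05) in the 10 genes and the 3 lists (x axis), for each drug, with the median of each list as a black line. With vancomycin the median is -1.53 for the 10 genes, -0.77 for the other YAP targets and -0.63 for the Hippo regulators.

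Other measures differed between the groups as well, and their part in these results was not tested. The sum over 5 fibroblast and pericyte markers was 241 to 277 CPM with vancomycin against 115 to 129 CPM in the control group, while cisplatin samples had 105 to 109 CPM and iohexol samples 106 to 116 CPM. With vancomycin all 4 of those tested rose, whereas with cisplatin COL1A1 and PDGFRB rose and DCN and LUM fell, and with iohexol DCN fell. The sum over 7 renal epithelial markers was 2053 to 2068 CPM with vancomycin against 1632 to 1743 CPM in the control group, and lower in the cisplatin samples (1424 to 1480 CPM) and the iohexol samples (1346 to 1577 CPM), and its members went opposite ways. With vancomycin the keratin genes KRT8, KRT18 and KRT19 rose (log2 fold changes 0.69, 0.74 and 0.91), CDH6 (-0.53), EPCAM (-0.44) and PAX2 fell and PAX8 was not called. With cisplatin the same 3 keratin genes rose (0.77, 0.90 and 0.32) and CDH6 (-3.02), EPCAM (-1.51), PAX8 (-1.50) and PAX2 fell. With iohexol PAX8 (0.75) and PAX2 rose and CDH6 (-1.59) and KRT18 (-0.42) fell. PAX2 was under 5 CPM in the mean of each group. The sum over the 9 markers of the differentiated proximal tubule was 359 to 386 CPM with vancomycin against 161 to 214 CPM in the control group, while cisplatin samples had 166 to 183 CPM and iohexol samples 121 to 180 CPM, and GGT1 made up nearly all of it. With vancomycin GGT1 rose from 189.5 ± 28.2 to 363 ± 15.7 CPM (0.89), AQP1 also rose, and ANPEP, CUBN and SLC5A2 were not called. The other 8 markers together had 3.63 to 4.74 CPM in the control samples and 4.81 to 5.67 with vancomycin. They had 8.62 to 10.3 CPM with iohexol and 2.6 to 3.72 CPM with cisplatin. With iohexol ANPEP (1.75) and CUBN (1.48) rose, and GGT1 and SLC5A2 were not called. With cisplatin ANPEP fell (-1.57), and GGT1 and SLC5A2 were not called. The share of counts on mitochondrial genes in the vancomycin samples was 4.14% to 4.39% against 5.03% to 5.73% in the control samples. In the cisplatin samples the 10 most abundant genes held 5.97% to 6.04% of counts, against 7.69% to 8.10% in the control samples and 9.16% to 10.2% with vancomycin, and TMM factors were 1.12 to 1.13 with cisplatin and 0.885 to 0.897 with vancomycin. Scaling by library size only raised the median over all genes of the log2 fold change with cisplatin by 0.218 and changed the counts over all genes from 4643 higher and 4857 lower to 6929 and 3241, and those of the 10 genes from 4 and 5 to 4 and 3. With iohexol it changed the counts over all genes from 1754 higher and 1529 lower to 2237 and 1078, and those of the 10 genes from 0 and 3 to 1 and 2. With vancomycin the number of DEGs among the 10 genes was 7 under every alternative tried.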

How the data were processed

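The mRNA of 12 HK-2 samples was sequenced after poly(A) selection and NEBNext Ultra library preparation, a kit that does not mark the strand. The authors deposited raw counts of reads per gene for 58735 genes, without normalization. The submitters' processing notes name CASAVA 1.8, fastp, HISAT2 2.0.5, featureCounts 1.5.0-p3 and DESeq2 1.20.0. The strand setting is not given in the sources used here. Of the genes, 58594 had the same position in GENCODE release 29, and promoter sequences were taken from RefSeq (GRCh38.p14), with 8 of the 10 genes matched.

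Drug and control samples (3 against 3) were fitted separately for each drug with edgeR 4.0.16 in R 4.3.3 (TMM, filterByExpr with a minimum count of 10 and a total of 15, quasi-likelihood test, Benjamini-Hochberg adjustment over all genes tested), and the drugs with each other by contrasts in 1 fit of 12 samples. The paper's methods name limma. Since the values are counts, limma-voom (limma 3.58.1) was an alternative, beside DESeq2 1.42.0, RLE factors, library sizes only, no filter, at least 10 counts in every sample, a replicate block, another choice of samples and leaving out each sample. A standard error is the log2 fold change divided by the square root of F. Log2 CPM used a prior count of 2. Total counts were 14057282 to 18177109, and the chi-square per degree of freedom between replicates was 2.29 to 16.4, above the sampling noise.

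The 10 genes and the gene lists were chosen with earlier results of these data known. Named beside the 10 were LATS1, WWTR1, TEAD2, TEAD3 and TEAD4, the highest and lowest called gene of each list and drug with a mean of at least 1 CPM, and the 3 genes most like CYR61, CTGF and ANKRD1 over 12 samples. The fitting steps were run on simulated counts for cisplatin against control and for vancomycin against iohexol only. The simulation gave every gene the same dispersion, so it cannot show how the test behaves with the spread of these replicates. A search of the protein sequences was not run here. Plots were made with Python 3.11.15 and matplotlib 3.10.9.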

Additional observations from a re-analysis of the deposited data

How the results depend on the processing

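With 3 samples in a group, leaving out 1 changes the calls of small differences most often. Of 420 values of single genes against the control group under the alternatives, 390 kept their direction and their side of the threshold, 14 lost the call, 8 gained one and 8 turned direction. Between drugs, of 600 values 573 were the same, 21 lost the call, 3 gained one and 3 turned. The cause of these changes was not tested. With library sizes only, the genes lower with cisplatin came to 3, those past the DEG limit to 1, and the genes higher were 1 with iohexol, 0 between vancomycin and cisplatin and 0 between vancomycin and iohexol. This last count was 0 also without the filter, with only the samples of the 2 drugs and with the replicate block. In a fit of all 12 samples the genes higher with iohexol were 1. Without 1 replicate the genes higher with cisplatin against iohexol numbered 2 to 4, those higher with iohexol against the control group 0 to 1, and those higher with vancomycin against iohexol 0 to 1. Over all genes, the number called with iohexol was 3283, and 1849 to 4544 without 1 replicate. It was 1849 without control replicate 2, 2111 without iohexol replicate 2 and 4544 without iohexol replicate 3. The chi-square per degree of freedom of iohexol replicate 3 was 16.4 against replicate 1 and 15.6 against replicate 2. Between iohexol replicates 1 and 2 it was 3.67.

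The values that turned were all of genes not called. With library sizes only, AMOTL1 came to 0.063 with cisplatin, LATS2 to 0.039 and AMOTL2 to 0.048 with iohexol, CYR61 to 0.019 between cisplatin and iohexol and YAP1 to -0.15 between vancomycin and iohexol. With iohexol and without 1 replicate, TEAD1 ranged from -0.076 (without iohexol replicate 3) to 0.10, and was at -0.0005 without control replicate 2. LATS2 ranged from -0.088 to 0.0004 (without control replicate 3) and AMOTL2 from -0.11 to 0.057 (without iohexol replicate 3), with 0.016 without control replicate 3. Between vancomycin and cisplatin AMOTL1 ranged from -0.17 to 0.033, the latter without vancomycin replicate 2.

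The replicate numbers are shared by all groups, but the paper's methods name no pairing of samples. After the group means were removed, samples with the same number had correlations of -0.184 to 0.103 over all comparisons. For vancomycin against control these were 0.0432 to 0.103, against a mean of -0.0358 for samples with other numbers. With the replicate block, 2096 genes were called with iohexol in place of 3283, 9769 with cisplatin in place of 9500 and 9679 with vancomycin in place of 9158. All 6 samples of the vancomycin comparison correlated best with their own number, 5 of 6 with cisplatin and 0 of 6 with iohexol, a hint from the data and not from the design. Between the drugs this held for 2 of 6 samples of vancomycin and cisplatin. It held for 0 of 6 of cisplatin and iohexol and 0 of 6 of vancomycin and iohexol. With the block CYR61 was not called with iohexol (adjusted p = 0.0669), AMOTL1 was with vancomycin (adjusted p = 0.0308), and neither LATS2 between cisplatin and iohexol (adjusted p = 0.0571) nor AMOTL1 between vancomycin and iohexol (adjusted p = 0.0556) was called. Of the other YAP targets with iohexol, the block left 0 higher and 7 lower in place of 1 and 8.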
